A study of Mus musculus with 5 samples.

Results

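The vascular smooth muscle subtype VS2 was 552 of the 5600 aortic cells in the deposited table, chosen as every cell that the authors' subtype column names VS2. Mouse aortas were profiled by droplet single-cell RNA sequencing on the 10x Genomics platform, in which a unique molecular identifier (UMI) marks each captured transcript. The library labelled DKO, ApoE gave 326 of these cells and the library labelled WT, ApoE gave 226. The labels call the mutant mice Liver-DKO, do not spell DKO out and write ApoE for both aortas, and the series title concerns liver epsins. The sources used here name no strain, age, diet or number of aortas per library, and no promoter that drives the liver deletion. Each group is 1 library, so no difference between DKO and WT has a replicate check, no test over samples exists, and every 95% interval in brackets covers counting error only.

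Vascular smooth muscle cells form the wall layer that sets vessel tone. They contract when calcium and calmodulin activate myosin light chain kinase, and they relax through cyclic GMP and its kinase. In atherosclerosis-prone arteries they are known to lose contractile proteins and to take on matrix-producing, inflammatory or cartilage-like programs. Many contractile genes are controlled by serum response factor with myocardin, which binds a motif named the CArG box.

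Levels below are UMIs of a gene summed over a cell set and divided by all UMIs of that set, in counts per 1000000 UMIs (CPM). VS2 held 381031 UMIs in the DKO library and 184428 in the WT library. Its cells had a median of 1072.5 UMIs and 690 detected genes in DKO, against 770 UMIs and 530.5 genes in WT. VS1 cells were deeper, with medians of 2365 UMIs in DKO and 2119 in WT, and VS3 cells were shallower, with 596 in DKO and 584.5 in WT. Depth therefore orders the 3 subtypes the same way in both libraries, and within VS2 the DKO cells were the deeper ones. The 2 libraries shared 4 cell barcodes, which touched 1 VS2 cell. The doublet caller Scrublet marked 1 of 2800 DKO cells, 0 of 2800 WT cells and no VS2 cell. Whether it missed doublets was not tested, and any doublets were left in.

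VS2 made up 11.6% of the DKO library (10.5 to 12.9) and 8.07% of the WT library (7.09 to 9.14). The ratio of these shares was 1.44 (1.21 to 1.72), beside 1.06 (0.908 to 1.23) for VS1 and 4.88 (3.77 to 6.37) for VS3. Taken over smooth muscle cells alone, with VS1, VS2 and VS3 as the whole, VS2 was 31.5% in DKO and 35.5% in WT, and the ratio of 0.887 ran the other way. Among cells with at least 500 detected genes, which left 269 VS2 cells in DKO and 128 in WT, the ratio was 2.28. The share difference thus depended on which cells were counted, and the depth difference between the libraries moved with it; its part was not tested.

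**Figure D1:**
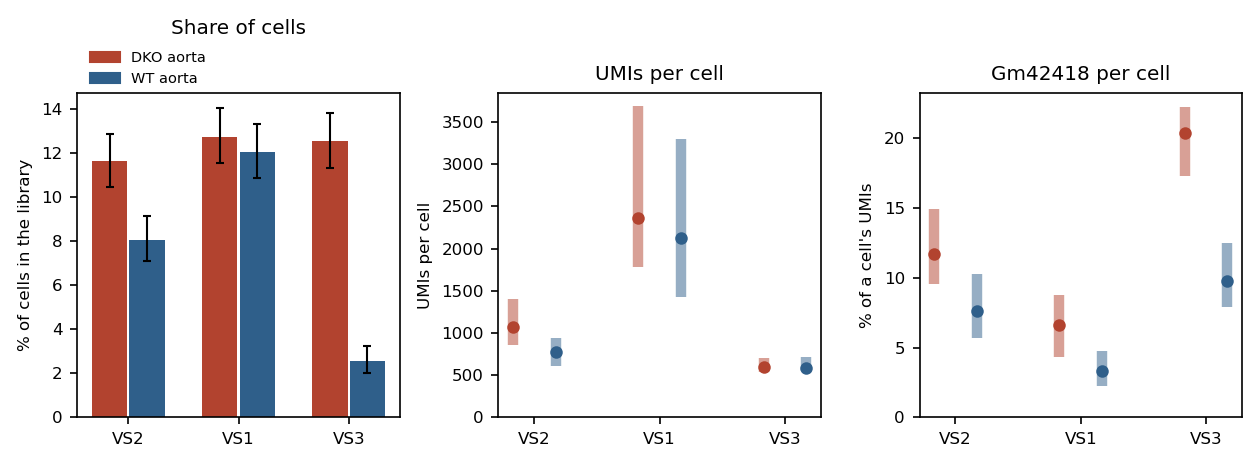
Share of all cells in each library (left, bars with 95% exact binomial intervals), UMIs per cell (middle) and percent of a cell's UMIs from Gm42418 (right, points are medians and thick lines span the quartiles) for VS2, VS1 and VS3, DKO aorta left of WT aorta in each pair. VS2 lies between VS1 and VS3 in depth and in Gm42418 share in both libraries.

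The label was checked against the 6 genes given as its markers, all of them smooth muscle genes. Acta2 encodes smooth muscle actin and stood at 14778 CPM in DKO VS2 and 14222 CPM in WT VS2. Myh11 encodes the smooth muscle myosin heavy chain and had 3504 CPM in DKO and 3145 CPM in WT. Tpm2 encodes a tropomyosin that lies along actin filaments, with 1884 CPM in DKO and 1957 CPM in WT. These genes of the contractile apparatus were at nearly the same level in both libraries. Rgs5 encodes a regulator that shortens signalling by G-protein-coupled receptors, and its level was 1669 CPM in DKO and 618 CPM in WT. Mylk4 encodes a kinase of the myosin light chain kinase family and had 444 CPM in DKO and 325 CPM in WT. Pcp4l1, whose product resembles a calmodulin-binding peptide, had 234 CPM in DKO and 195 CPM in WT. The markers fit the smooth muscle name, and all 12 smooth muscle markers listed for this check were detected in VS2 of each library.

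These markers did not set VS2 apart from VS1. Of the 15 DKO subtypes with at least 50 cells, VS2 ranked 1 or 2 for each of the 6 markers, and VS1 took the neighbouring rank for 5 of them. Of 16 WT subtypes, VS2 ranked 1 or 2 for each marker as well. Acta2 was higher in VS1, at 16410.2 CPM in DKO and 14848 CPM in WT, and lower in VS3, at 11165 CPM in DKO and 11227 CPM in WT. Rgs5 in VS1 stood at 1618 CPM in DKO and 568 CPM in WT, close to VS2 within the counting intervals of both. In WT, Rgs5 was highest in the authors' subtype MP1, at 1059 CPM (920 to 1214) against 618 CPM (510 to 743) in VS2.

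Smooth muscle transcripts were also present in cells that should lack them. In TC1, a subtype whose name in the authors' table is that of a T-cell group, Acta2 had 2762 CPM in DKO and 2842 CPM in WT. After each cell was thinned to 1000 UMIs, 67.0% of DKO VS2 cells (59.8 to 73.7) and 37.0% of WT VS2 cells (23.2 to 52.5) held an Rgs5 UMI. The shares without thinning were 72.7% in DKO and 25.7% in WT. In TC1 the thinned Rgs5 shares were 18.5% in DKO (9.25 to 31.4) and 16.7% in WT (8.62 to 27.9). Thinning left 188 of 326 DKO cells and 46 of 226 WT cells of VS2, and 54 DKO and 66 WT cells of TC1. The TC1 values were taken as the background of muscle RNA in droplets of other cells, whose source (free RNA or doublets) was not tested. The Rgs5 share of VS2 was above it in DKO, while in WT the intervals overlapped. Thinned to 500 UMIs they still did in WT, at 19.9% (14.9 to 25.7) against 8.43% (3.46 to 16.6). They did not by CPM, with WT Rgs5 at 618 (510 to 743) in VS2 and 115 (76.5 to 166) in TC1. In the authors' subtype AP1 of WT, the share at 1000 UMIs was 3.18% (1.29 to 6.45). The WT reading thus depended on the measure and on the background subtype. TC1 cells were deeper than VS2 cells, with medians of 3817 UMIs in DKO and 2130 in WT.

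**Figure D2:**
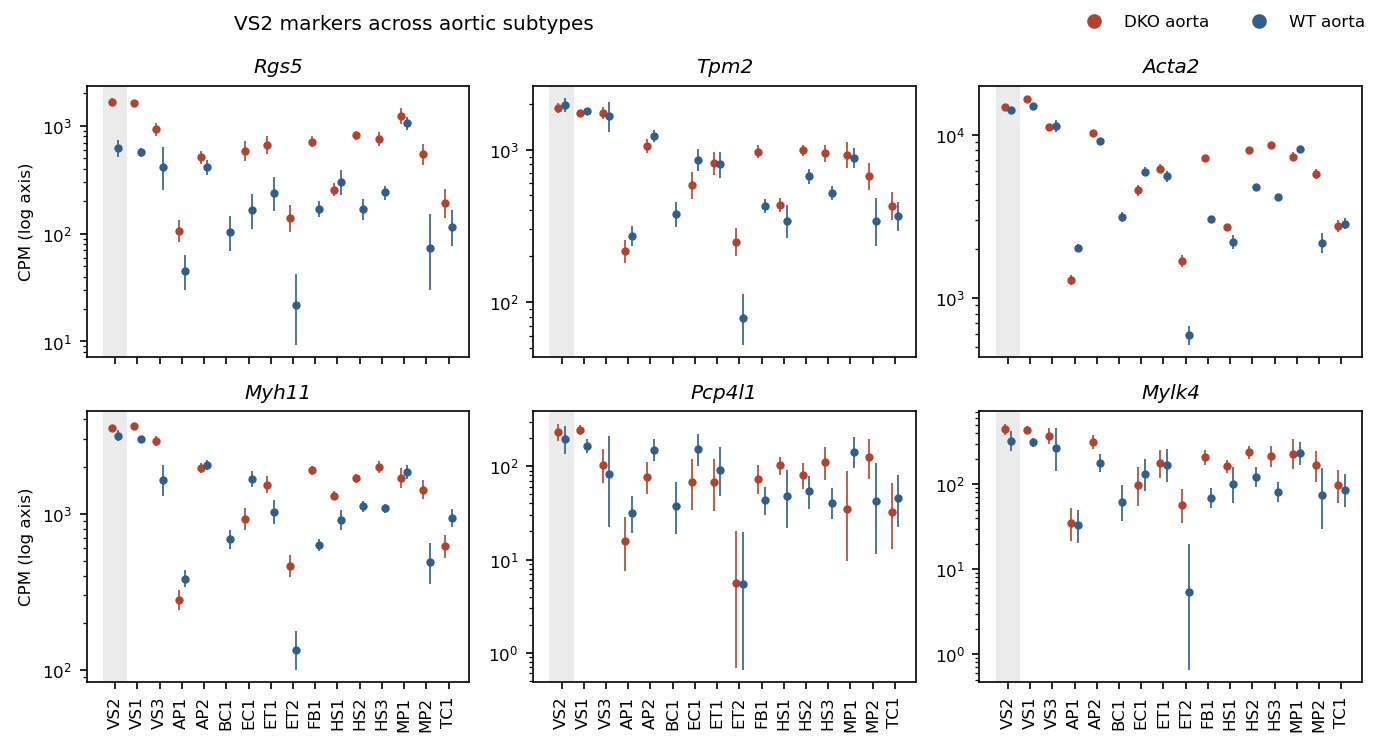
CPM (log axis) of the 6 marker genes in each aortic subtype with at least 50 cells in that library, DKO aorta left of WT aorta, with exact Poisson 95% intervals. The shaded VS2 column is at or next to the top in every panel, with VS1 beside it, and the other subtypes are not at 0.

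Markers of other vascular cells were read in the same way. The endothelial genes Cdh5, Kdr, Tie1 and Vwf had no UMI in VS2 of either library, while Pecam1 had 126 UMIs in DKO and 66 in WT. Fabp4, which is on the endothelial and the adipocyte list, had 73 UMIs in DKO and 20 in WT. The summed endothelial list stood at 535 CPM in DKO and 493 CPM in WT. Fibroblast genes summed to 4569 CPM in DKO and 4619.7 CPM in WT, led by Col1a1, which smooth muscle also makes. Pericyte genes summed to 517 CPM in DKO and 548 CPM in WT, with Higd1b and Vtn at 0 in both. Macrophage genes summed to 31.5 CPM in DKO and 103 CPM in WT, and T-cell genes to 18.4 CPM in DKO and 5.42 CPM in WT. Chondrocyte genes were lower in DKO, at 297 CPM against 683 CPM in WT, with Comp and Cytl1 the leading members. Erythroid genes were higher in DKO, at 3120.5 CPM against 358 CPM in WT.

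The genes that name the series were scarce in VS2. Epn1 (chromosome 7, 5080235 to 5098178 on mm10) had 12 UMIs in DKO and 7 in WT, and Epn2 (chromosome 11, 61517249 to 61579687) had 44 in DKO and 28 in WT. Both encode epsins, clathrin adaptors, and the labels place the deletion in liver, so these aortic counts do not check the label. Apoe had 0 UMIs in DKO and 1 in WT.

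The closest neighbour, VS1, differed from VS2 in few genes. Of 720 genes with at least 200 CPM in either subtype in both libraries, 2 were over 2-fold higher in VS2 in both libraries (0.278%) and 0 were over 2-fold lower in both (0%). Genes of each cluster helped to define it, so this is a description and not a test. Gm42418, an RNA gene on chromosome 17 (39846958 to 39848788) in a region known for sequence like ribosomal RNA, took 11.5% of DKO VS2 UMIs and 7.91% of WT VS2 UMIs. In VS1 it took 5.65% in DKO and 3.00% in WT. The log2 difference of VS2 over VS1, after adding 20 CPM to both levels, was 1.02 in DKO and 1.40 in WT. AY036118 lies within Gm42418 on the opposite strand, and whether reads of the 2 genes were mixed was not tested. The AY036118 differences were 1.07 in DKO and 1.36 in WT. With Gm42418, AY036118, mitochondrial and haemoglobin genes taken out of the totals, 1 gene was past 2-fold higher, and with every cell thinned to 1000 UMIs none was.

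Below that fold, a small group of genes was higher in VS2 than in VS1 in both libraries. Camk1d, which encodes a calcium- and calmodulin-dependent kinase, had 3435 CPM in DKO VS2 and 1778 CPM in WT VS2, against 1789 CPM in DKO VS1 and 816 CPM in WT VS1. Its log2 differences were 0.93 in DKO and 1.10 in WT. Its level was higher still in VS3, at 5209.7 CPM in DKO and 2838 CPM in WT. The Gm42418 share had the same order, at 17.8% in DKO VS3 and 9.98% in WT VS3. Cmss1 had log2 differences of 0.81 in DKO and 0.94 in WT. Lars2, which encodes the mitochondrial leucyl-tRNA synthetase, had 0.45 in DKO and 0.77 in WT, and Gphn, which encodes the scaffold protein gephyrin, had 0.45 in DKO and 0.70 in WT. The next in rank, Htra1, a secreted serine protease, had 394 CPM in DKO VS2 and 439 CPM in WT VS2, with log2 differences of only 0.31 in each library. Camk1d, Cmss1 and Lars2 stand with Gm42418 and AY036118 on a list of ribosomal-RNA-like and long transcripts. Of its 9 members with enough counts, 6 were higher in VS2 than in VS1 in both libraries and 2 lower. Over all 720 genes, 104 were higher in both and 330 lower. The list's median log2 differences were 0.45 in DKO and 0.77 in WT. The part of reads like ribosomal RNA in these levels was not tested.

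Genes lower in VS2 than in VS1 included a cell-cycle inhibitor and a cartilage gene. Cdkn1a encodes the inhibitor p21 and stood at 215 CPM in DKO VS2 and 217 CPM in WT VS2, against 407 CPM in DKO VS1 and 466 CPM in WT VS1. Its log2 differences were -0.86 in DKO and -1.04 in WT. Cytl1, a secreted protein known from chondrocytes, had 129 CPM in DKO VS2 and 239 CPM in WT VS2, against 218 CPM in DKO VS1 and 555 CPM in WT VS1. Skp1a, Lmcd1 and Alcam came next in rank, with log2 differences of -0.53, -0.51 and -0.50 in DKO and -0.58, -0.51 and -0.79 in WT. Cebpb, a transcription factor of inflammatory responses, and Neat1, a long nuclear RNA of paraspeckles, came after them with log2 differences of -0.49 in DKO for each and -0.65 and -0.61 in WT. Immediate early genes had lower values in VS2 than in VS1 in both libraries for 13 of 20 members with enough counts, with a median log2 difference of -0.19 in DKO and -0.23 in WT. Over all 720 genes the medians were -0.11 in DKO and -0.07 in WT, with 104 higher in both and 330 lower in both. Mitochondrially encoded genes had 5 of 11 higher in both libraries and 0 lower, with medians of 0.13 in DKO and 0.11 in WT.

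VS3 differed more. Of 691 genes by the same minimum, 26 were over 2-fold higher in VS2 in both libraries (3.76%) and 4 were over 2-fold lower (0.579%). Neat1 had 730 CPM in DKO VS2 and 770 CPM in WT VS2, against 153 CPM in DKO VS3 and 104 CPM in WT VS3. Its log2 differences were 2.11 in DKO and 2.68 in WT. Prkg1, the cyclic GMP-dependent kinase that relaxes smooth muscle, had 955 CPM in DKO VS2 and 802 CPM in WT VS2, against 410 CPM in DKO VS3 and 145 CPM in WT VS3. Ntrk3, a neurotrophin receptor, and Slit3, a secreted guidance protein, were also past 2-fold. Their log2 differences were 1.23 and 1.39 in DKO and 1.45 and 1.19 in WT. VS3 of the WT library held 48275 UMIs in 72 cells, so the WT folds rest on few counts there, with 5 UMIs for Neat1, 7 for Prkg1, 4 for Ntrk3 and 6 for Slit3.

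The genes lower in VS2 than in VS3 had another character. Tmsb10, which encodes an actin-binding thymosin, had 113 CPM in DKO VS2 and 174 CPM in WT VS2, against 315 CPM in DKO VS3 and 559 CPM in WT VS3. S100a4, a calcium-binding protein of motile cells, Dcn, the collagen-binding proteoglycan decorin, and Vcam1, an adhesion receptor for leukocytes, completed the 4 past 2-fold. Their log2 differences were -1.19, -1.02 and -1.01 in DKO and -1.26, -1.04 and -1.07 in WT. These 3 genes stand on a list of modulated smooth muscle, of which 7 of 11 members were lower in VS2 in both libraries and 1 was higher, beside 228 lower and 327 higher of all 691 genes. Ribosomal protein genes were lower in VS2 in both libraries for 79 of 80, with a median log2 difference of -0.28 in DKO and -0.98 in WT. Their summed share of UMIs was 6.09% in DKO VS2 and 6.20% in WT VS2, against 7.49% in DKO VS3 and 12.5% in WT VS3. Contractile genes had 20 of 31 members higher in VS2 in both libraries and 2 lower, beside 327 higher and 228 lower of all 691 genes. Their medians were 0.28 in DKO and 0.24 in WT, beside medians over all genes of 0.08 in DKO and 0.19 in WT.

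Gene length separated these groups. The 327 genes higher in VS2 than in VS3 in both libraries had a median genomic span of 81.6 kb (quartiles 18.3 and 182 kb). The 228 genes lower in both had a median of 5.49 kb (quartiles 3.22 and 12.8 kb), and all 691 genes had 20.4 kb. Of the 26 past 2-fold higher, 25 had a span in the annotation, with a median of 391 kb. No source used here says whether reads from introns were counted.

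**Figure D3:**
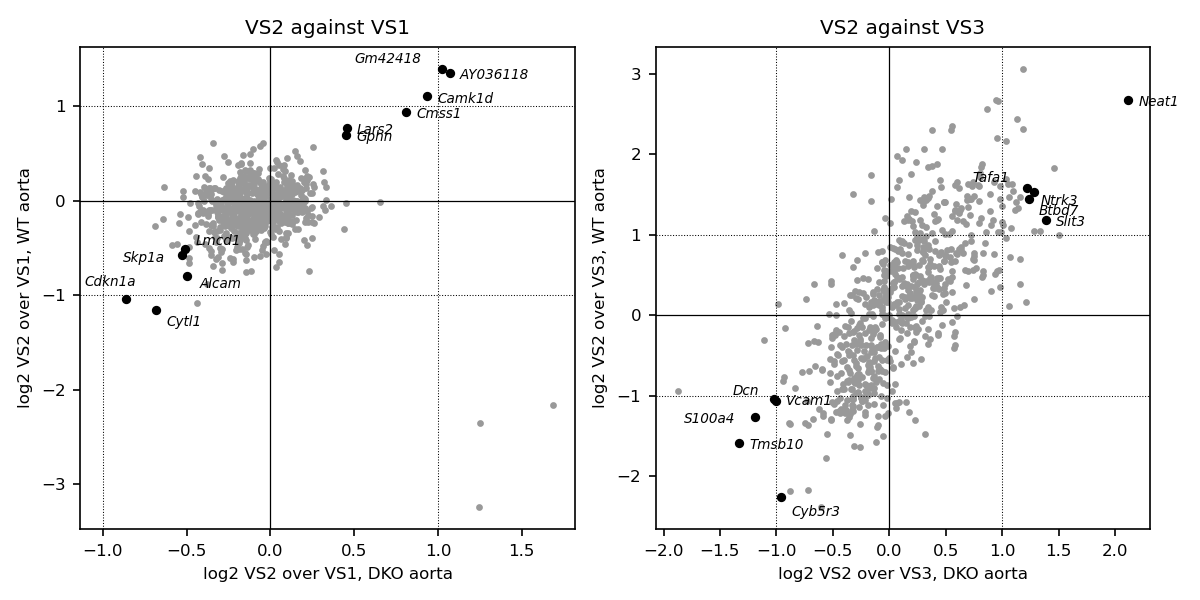
Each point is a gene, with its log2 difference of VS2 over VS1 (left) or VS3 (right) in the DKO aorta across and in the WT aorta up, after adding 20 CPM, and dotted lines at 2-fold. Black points are named genes among the highest and lowest ranked: against VS1 Gm42418 and AY036118 are past 2-fold in both libraries, and against VS3 Neat1 is farthest out at 2.11 and 2.68. The 3 points at the lower right of the left panel are haemoglobin genes.

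Against all aortic cells outside the 3 muscle subtypes, 44 of 766 genes were over 2-fold higher in VS2 in both libraries (5.74%) and 51 lower (6.66%). The highest were Acta2, Myl9, Tpm2, Rgs5, Tagln, Myh11, Sost, Cnn1, Dstn, Mylk4, Csrp1 and Ppp1r14a, with smaller-library log2 differences between 1.42 and 1.68. Sost encodes sclerostin, a secreted Wnt inhibitor best known from osteocytes. It stood at 449 CPM in DKO VS2 and 287 CPM in WT VS2, against 140.4 CPM in DKO and 76.2 CPM in WT outside muscle.

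Between the libraries, VS2 was compared over 829 genes with at least 100 summed UMIs. By a CPM ratio of DKO over WT of at least 1.5, 44 genes were higher (5.31%), and 51 were lower by the same fold (6.15%). The counting interval lay above 1 for 92 genes (11.1%) and below 1 for 121 (14.6%), and the median log2 ratio was -0.07. Without regard to size, 348 of the 829 ratios were above 1 and 481 below, the background for each list count that follows. With Gm42418, AY036118, mitochondrial and haemoglobin genes left out of the totals, the split was 69 higher and 27 lower. Gm42418 itself had a ratio of 1.45 in VS2, beside 1.88 in VS1 and 1.79 in VS3. All ratios below are CPM in DKO over CPM in WT.

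Contractile genes were mostly level. Of 31 measured members of 37 listed, 2 were past 1.5-fold higher and 0 past it lower, with 5 intervals above 1 and 2 below, and the median log2 ratio was 0.04. Acta2 had a ratio of 1.04 (0.992 to 1.09), Tagln, encoding the actin-bundling protein transgelin, 1.01 (0.949 to 1.08), and Myh11 1.11 (1.01 to 1.23). The values past the fold were those of Mylk, the myosin light chain kinase that triggers contraction, at 1118 CPM in DKO and 727 CPM in WT, a ratio of 1.54 (1.26 to 1.88). Synpo2, an actin-bundling protein, had 764 CPM in DKO and 499 CPM in WT, a ratio of 1.53 (1.21 to 1.96). Cnn1, the calponin that damps myosin activity, had a ratio of 1.31 (1.09 to 1.59) and Myl6, the essential myosin light chain, 1.24 (1.14 to 1.35). Myl9, the regulatory light chain that the kinase phosphorylates, went the other way at 2407 CPM in DKO and 2977 CPM in WT, a ratio of 0.808 (0.727 to 0.900). The 2 myosin light chains of the same motor thus had intervals on opposite sides of 1.

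CArG boxes were searched in promoters of the contractile list and the VS2 markers, from which the label check and the contractile comparison drew their genes. The sets differ, since Cnn2 and Ldb3 had too few UMIs for that comparison, and Myh11 and Tagln had no promoter here. Windows of 300 bases, 250 before to 50 after the RefSeq start on GRCm38.p6, held a 10-letter CArG box in 6 of 34 genes with a promoter (17.6%). Over all 16510 genes of the count table with a promoter the share was 1.65%. Each match read CC, then 6 letters of A or T, then GG. The 6 are Myl9, Myl6, Cnn2, Vcl, Ldb3 and Fhl1, and none of the 5 VS2 markers with a promoter held this exact match. The Acta2 window holds ccctatatgg and ccttgtttgg, which each depart from it by 1 letter and were not counted. A CArG box on one strand is one on the other strand too. A match is a description of letters, and no match says only that these letters are not in this window. The promoters shown are those of the 2 light chains whose ratios lay on opposite sides of 1 and of Rgs5, the marker that differed most between the libraries, each 5′ to 3′ on the gene's strand with the CArG box in capitals. Myl9 lies at chr2:156775214-156775513 on the plus strand with the box starting 161 bases before the start site. Myl6 has 2 start sites in the table, and the one shown, at chr10:128492960-128493259 on the minus strand, has the box 50 bases before it. Rgs5 lies at chr1:169655251-169655550 on the plus strand and has no match.
Myl9: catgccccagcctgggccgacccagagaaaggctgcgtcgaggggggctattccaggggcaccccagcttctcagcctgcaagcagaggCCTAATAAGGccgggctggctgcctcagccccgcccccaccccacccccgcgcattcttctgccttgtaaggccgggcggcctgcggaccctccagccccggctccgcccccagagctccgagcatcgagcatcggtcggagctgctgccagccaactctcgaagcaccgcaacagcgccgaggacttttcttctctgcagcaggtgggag
Myl6: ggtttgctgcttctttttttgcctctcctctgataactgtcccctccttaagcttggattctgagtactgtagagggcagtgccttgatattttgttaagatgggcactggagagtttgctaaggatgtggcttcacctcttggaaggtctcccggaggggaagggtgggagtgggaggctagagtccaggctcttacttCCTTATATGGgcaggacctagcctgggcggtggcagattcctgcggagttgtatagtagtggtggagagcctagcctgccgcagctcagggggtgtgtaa
Rgs5: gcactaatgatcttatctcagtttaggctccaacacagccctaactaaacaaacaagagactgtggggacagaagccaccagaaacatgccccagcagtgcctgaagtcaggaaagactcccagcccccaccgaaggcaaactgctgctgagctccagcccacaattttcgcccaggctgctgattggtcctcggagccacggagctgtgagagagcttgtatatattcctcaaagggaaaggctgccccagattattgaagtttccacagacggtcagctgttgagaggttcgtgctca

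Rgs5 (chromosome 1, 169655501 to 169695813) was the member of the tone-signalling list with the widest difference. It had 636 UMIs in DKO VS2 and 114 in WT VS2, with a UMI in 237 of 326 DKO cells and in 58 of 226 WT cells. The ratio was 2.70 (2.21 to 3.33). The same ratio was 2.85 in VS1, 2.25 in VS3 and 2.19 in all cells outside muscle, so the difference was present in each of these cell sets. The last set pools unlike subtypes, and Rgs5 stood at 588 CPM in DKO and 164 CPM in WT in EC1. In MP1 it was 1231 CPM in DKO and 1059 CPM in WT. HS1 went the other way, at 256 CPM (222 to 294) in DKO and 303 CPM (229 to 392) in WT. Thinned to 1000 UMIs the VS2 ratio was 1.90. Plcb4, a phospholipase that releases inositol trisphosphate, had 596 CPM in DKO and 309 CPM in WT, a ratio of 1.93 (1.44 to 2.62). Rock1, a kinase that sensitises the contractile apparatus to calcium, had a ratio of 1.31 (1.07 to 1.60), and Rhoa, the GTPase that activates it, had 0.752 (0.575 to 0.989). Of 16 measured members of this list, 2 were past 1.5-fold higher and 0 lower, with a median log2 ratio of 0.05. The guanylate cyclase subunits Gucy1a1 and Gucy1b1 and the kinase Prkg1 had intervals that included 1.

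Channels and calcium handling gave 1 of 9 measured members past the fold. Kcnab1, an auxiliary subunit of voltage-gated potassium channels, had 307 CPM in DKO and 136 CPM in WT, a ratio of 2.27 (1.46 to 3.64), beside 2.90 in VS1 and 4.0 outside muscle, and 4.16 when VS2 cells were thinned to 1000 UMIs. Antisense genes overlap its locus, and their part in its counts was not tested. Itpr1, the calcium release channel opened by inositol trisphosphate, had a ratio of 1.33 (1.02 to 1.75). Cacna2d1, a subunit of voltage-gated calcium channels, had 0.709 (0.535 to 0.944). Atp2a2, the pump that refills the calcium store, had 0.993 (0.775 to 1.28). Camk1d, described above for its level against VS1, is not one of these 9 but is on the list of ribosomal-RNA-like and long transcripts. It had 1309 UMIs in DKO and 328 in WT, a ratio of 1.93 (1.71 to 2.19), beside 2.19 in VS1 and 1.90 outside muscle.

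Matrix genes did not move as one. Mfap4, a microfibril-associated protein of elastic fibres, had 144 UMIs in DKO VS2 and 18 in WT VS2, or 378 CPM and 97.6 CPM. The ratio was 3.87 (2.36 to 6.72), beside 2.53 in VS1, 1.18 in VS3 and 1.65 outside muscle. Mapk7 overlaps Mfap4 on the opposite strand, and whether reads of the 2 genes were mixed was not tested. Other named genes also have an opposite-strand overlap, among them Mt2, Hspa1a, Gas6 and App. Eln, which encodes elastin, had 884 CPM in DKO and 1041 CPM in WT, with an interval that included 1. All 8 measured collagens had ratios above 1, between 1.01 and 1.28, beside 348 of 829 over all genes, and Col3a1 alone had an interval above 1, at 890 CPM in DKO and 694 CPM in WT, a ratio of 1.28 (1.04 to 1.58).

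Among the matricellular proteins and proteoglycans, 1 of 14 was past 1.5-fold higher and 1 lower. Postn, the matricellular protein periostin, had 829 CPM in DKO and 434 CPM in WT, a ratio of 1.91 (1.49 to 2.48), beside 1.89 in VS1 and 1.87 outside muscle. Dcn had 425 CPM in DKO and 775 CPM in WT, a ratio of 0.548 (0.435 to 0.692), beside 0.569 in VS1 and 0.546 in VS3. The Dcn ratio was 0.775 when thinned to 1000 UMIs and 0.842 in cells of 700 to 1500 UMIs. Mgp, the matrix Gla protein that keeps arteries from calcifying, had 7529.6 CPM in DKO and 9315 CPM in WT, a ratio of 0.808 (0.761 to 0.859). Ccn1 was higher at 1.43 (1.16 to 1.78) and Ccn2, a related secreted protein, was lower at 0.783 (0.688 to 0.892). Ext1, which builds heparan sulfate chains, had 869 CPM in DKO and 434 CPM in WT, a ratio of 2.0 (1.56 to 2.59), and 3.43 when thinned to 1000 UMIs.

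Genes of modulated smooth muscle gave more low than high ratios. Of 10 measured members of 23 listed, 8 had ratios below 1, beside 481 of 829 over all genes. Past 1.5-fold, 2 were lower and 0 higher, and 7 intervals lay below 1. The list's median log2 ratio was -0.38, beside -0.07 over all measured genes. Vim, the intermediate filament vimentin, had 3614 CPM in DKO and 4869 CPM in WT, a ratio of 0.742 (0.682 to 0.808). Spp1, which encodes osteopontin, had 0.794 (0.670 to 0.944), and S100a4 had 0.660 (0.440 to 0.997). Klf4, a transcription factor known for driving this change of state, had 386 CPM in DKO and 358 CPM in WT, a ratio of 1.08 (0.801 to 1.46). Dcn and Lum on this list are also fibroblast markers, Dcn was also lower outside muscle, at 3009 CPM in DKO and 4686 CPM in WT, and the part of fibroblast RNA was not tested. Sost had a ratio of 1.56 (1.14 to 2.17), and Gas6, a ligand of TAM receptors, had 265 CPM in DKO and 483 CPM in WT, a ratio of 0.549 (0.409 to 0.739).

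Metallothioneins gave the lowest ratios. Mt1, which binds zinc and copper, had 210 UMIs in DKO VS2 and 275 in WT VS2, or 551 CPM and 1491 CPM. The ratio was 0.370 (0.307 to 0.444), beside 0.423 in VS1, 0.378 in VS3 and 0.449 outside muscle. Mt2, its neighbour on chromosome 8, had 118 CPM in DKO and 347 CPM in WT, a ratio of 0.340 (0.227 to 0.506). Gstm1, a glutathione transferase, had 0.529 (0.382 to 0.734), and Gpx1, a glutathione peroxidase, had 0.683 (0.506 to 0.924). Nox4, an NADPH oxidase that makes hydrogen peroxide, was higher at 404 CPM in DKO and 174 CPM in WT, a ratio of 2.33 (1.58 to 3.52), beside 1.95 in VS1 and 3.00 in VS3. Sod3, the extracellular superoxide dismutase, had 695 CPM in DKO and 401 CPM in WT, a ratio of 1.73 (1.33 to 2.27). Of the 12 measured members of this list, 2 were past 1.5-fold higher and 3 lower, with a median log2 ratio of -0.37.

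**Figure D4:**
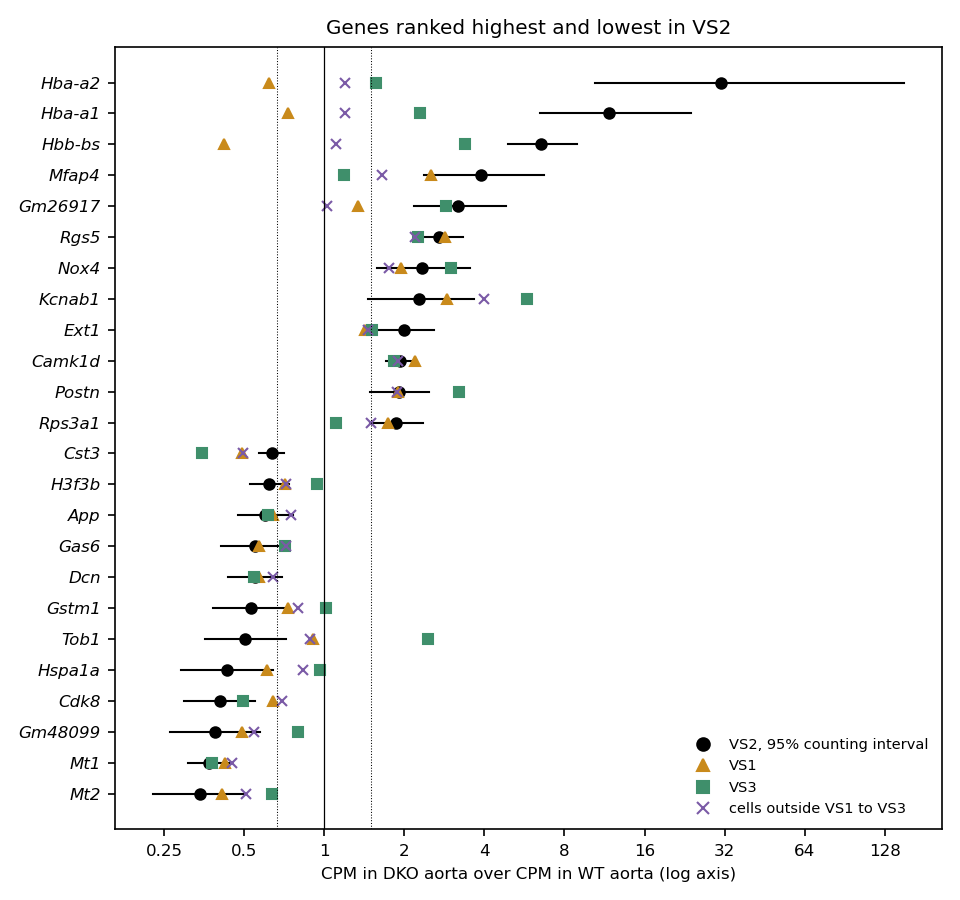
CPM in DKO aorta over CPM in WT aorta (log axis) for the 12 highest and 12 lowest ranked genes in VS2 with 95% counting intervals, and the same ratio in VS1, VS3 and cells outside these 3 subtypes, with dotted lines at 1.5-fold. The points of the other cell sets lie on the same side of 1 as VS2 for Rgs5, Nox4, Camk1d, Postn, Mt1, Dcn and Cst3, and the haemoglobin genes are below 1 in VS1.

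Acute response genes had a median log2 ratio of -0.25 in VS2, beside -0.07 over all measured genes. Of 21 measured immediate early genes, 15 had ratios below 1, beside 481 of 829 over all genes, so the count is not far from the background. Of these 21, 1 was past 1.5-fold lower and 0 higher, with 7 intervals below 1 and 2 above. Atf3, a stress-induced transcription factor, had 549 CPM in DKO and 830 CPM in WT, a ratio of 0.661 (0.534 to 0.820). Jun had 0.727 (0.599 to 0.885) and Fos 0.808 (0.723 to 0.903), the 2 parts of the AP-1 factor, while Egr1 had 1.09 (0.946 to 1.25). Hspa1a, an inducible heat shock chaperone, had 50 UMIs in DKO and 56 in WT, a ratio of 0.432 (0.289 to 0.644), and 0.220 when thinned to 1000 UMIs. It was the sole heat shock gene of 9 measured past the fold. Tob1, a repressor of proliferation, had a ratio of 0.506 (0.356 to 0.720), beside 0.912 in VS1.

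Mitochondrially encoded genes were higher by small amounts. Of 12 measured, 11 had ratios above 1, beside 348 of 829 over all genes, 0 were past 1.5-fold and 9 intervals lay above 1, with a median log2 ratio of 0.27. mt-Co3, a cytochrome oxidase subunit, had 6834 CPM in DKO and 4679 CPM in WT, a ratio of 1.46 (1.35 to 1.58). The mitochondrial share of UMIs was 3.58% in DKO VS2 and 2.80% in WT VS2. Nuclear genes of the same respiratory chain gave 8 of 10 ratios below 1 and a median of -0.20, beside 481 of 829 below 1 and a median of -0.07 over all genes. Ribosomal protein genes had 31 of 79 ratios above 1, near the background of 348 of 829, and a median of -0.05, which turns positive when libraries are scaled by the median of ratios. Rps3a1, which has many near-identical copies, had 987 CPM in DKO and 531 CPM in WT, and its reads are uncertain for that reason.

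Further genes named by rank were single cases. Cst3, the protease inhibitor cystatin C, had 2079 CPM in DKO and 3275 CPM in WT, a ratio of 0.635 (0.570 to 0.707), beside 0.493 in VS1 and 0.347 in VS3. One WT cell held 77 of its 604 WT UMIs, and without cells holding 2 or more UMIs of other cell types' markers the ratio was 0.727. Cdk8, a kinase of the Mediator complex, is also on the list of ribosomal-RNA-like and long transcripts. It had 215 CPM in DKO and 531 CPM in WT, a ratio of 0.405 (0.298 to 0.549), and 0.719 when thinned to 1000 UMIs. App, the amyloid precursor protein, had 0.601 (0.473 to 0.765), and H3f3b, a replacement histone, had 0.623 (0.527 to 0.737), and 0.734 without cells holding 2 or more UMIs of other cell types' markers. Gm26917, next to Gm42418 on chromosome 17, had 535 CPM in DKO and 168 CPM in WT, a ratio of 3.19 (2.18 to 4.81), beside 1.02 outside muscle and 6.14 in VS2 cells with at least 500 detected genes. One DKO cell held 113 of its 204 DKO UMIs, the 3 highest DKO cells held 65.7% of them, and the ratio was 2.13 with every cell weighted alike, so it rests on few cells. Gm48099, an RNA gene with no known role, had a ratio of 0.390 (0.263 to 0.576), and 0.592 in cells of 700 to 1500 UMIs.

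Pathways of lipid uptake could not be read. None of 32 listed genes of lipoprotein uptake and cholesterol, of 23 positional genes or of 17 proliferation genes reached 100 UMIs in VS2. Of 22 listed genes of epsins and endocytosis, 5 did (Cav1, Cltc, Cavin3, Cavin1 and Picalm), and their ratios ran between 1.09 and 1.2 with every interval including 1.

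**Figure D5:**
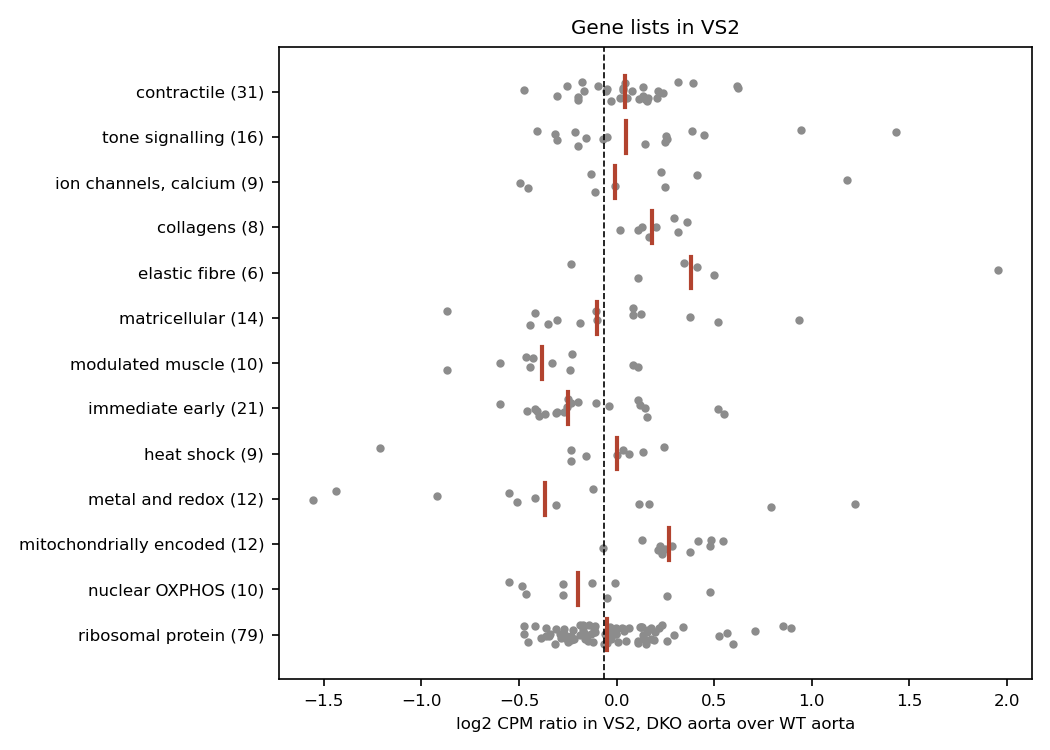
Each grey point is a measured gene of the named list, at its log2 ratio of CPM in VS2, DKO aorta over WT aorta, the number of measured genes stands in brackets, red bars are list medians and the dashed line is the median of all 829 measured genes. The modulated muscle list has its median at -0.38 and the mitochondrially encoded list at 0.27, while the contractile list sits at 0.04.

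Haemoglobin RNA was the widest difference, and it came from part of the cells. Hbb-bs, a beta-globin gene, had 675 UMIs in DKO VS2 and 50 in WT VS2, a ratio of 6.53 (4.90 to 8.89). Hba-a1 had 267 UMIs in DKO and 11 in WT, and Hba-a2 had 192 in DKO and 3 in WT. These 2 genes are near-identical copies of alpha-globin, so their separate counts are uncertain. At least 1 haemoglobin UMI was found in 154 of 326 DKO VS2 cells and 59 of 226 WT VS2 cells. At least 3 were found in 45 DKO cells and 0 WT cells, and 5 DKO cells held 50 or more, with a maximum of 82 in DKO and 2 in WT. Without cells of 3 or more, the ratio was 0.758 for Hbb-bs, 1.52 for Hba-a1 and 4.09 for Hba-a2. This filter took 45 DKO cells and 0 WT cells and used the haemoglobin counts themselves, so lower ratios follow from its construction. The erythroid genes Slc4a1 and Car2 had no UMI in VS2 of either library.

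Cells of VS2 varied most in a few abundant transcripts. After thinning to 1000 UMIs, 14 of 608 genes had a variance over mean of at least 1.5 in both libraries. Malat1, an abundant nuclear RNA, had a variance over mean of 11.5 in DKO and 31.5 in WT. Gm42418 had 19.3 in DKO and 8.41 in WT. Acta2 had 3.05 in DKO and 4.41 in WT, Tagln 2.92 in DKO and 3.06 in WT, and Rgs5 2.36 in DKO and 2.52 in WT. These genes were chosen as the most variable, and the WT values rest on 46 cells, so the values are a description. Fth1, the ferritin heavy chain, had 5.87 in DKO and 1.90 in WT, and 1 DKO cell held 361 of its UMIs. S100a6 had a value of 1.92 in DKO and 2.01 in WT.

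Depth within VS2 moved with composition. In DKO, the 163 cells at or below the median depth had 14.3% of UMIs from Gm42418 and 12194 CPM of Acta2, and the 163 deeper cells had 9.94% and 16219 CPM. In WT, the 113 shallower cells had 10.0% and 11649.7 CPM, and the 113 deeper cells had 6.60% and 15807 CPM. Rgs5 stood at 1415 and 1811 CPM in the shallower and deeper DKO cells and at 612 and 622 CPM in the WT ones, so DKO was above WT in both parts. These parts are not matched in depth, with medians of 861 and 1404 UMIs in DKO and 607 and 949 in WT. Among VS2 cells of 700 to 1500 UMIs in each library, the Rgs5 ratio was 2.84. Myh11 was even across depth, at 3505 and 3503 CPM in DKO and 3129 and 3154 CPM in WT.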

How the data were processed

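The aorta table was described here. Liver cells were not analysed here. Per the submitters' processing notes, the authors used Cell Ranger 7.1.0 and the mouse build mm10. The authors deposited raw UMI counts of 24309 genes per cell and a table of metadata, of which 29 columns were not used. Library and subtype were taken from the authors' metadata, and no source used here says how subtypes were named. Deposited cells had at least 499 UMIs, 201 to 2499 genes and at most 5.00% mitochondrial UMIs, so the deepest cells are missing.

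UMIs were summed per subtype and library. Levels are CPM with exact Poisson intervals, ratios have exact conditional binomial intervals and shares have Clopper-Pearson intervals, all at 95% and for counting error only. The code was tested on simulated data. Subtypes were compared in each library apart, among genes with at least 200 CPM in one of the cell sets in both libraries. Named genes were the 12 highest and lowest by the interval bound nearest to 1, the 12 highest and lowest against VS1 and VS3, the 12 highest against cells outside muscle, the 10 most variable genes and the 6 markers. Some of these genes are not reported here. Members, lists and rules were chosen with earlier results of these data known. Loci come from GENCODE M21 and promoters from RefSeq. Python 3.11.15, numpy 2.4.6, scipy 1.17.1, pandas 2.3.3 and scanpy 1.11.5 were used. Alternatives were other scalings, cell filters, thinning, count minimums and folds.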

Additional observations from a re-analysis of the deposited data

Results flagged for a closer look

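The alpha-globin gene Hba-a2 had a ratio of DKO over WT of 31.0 in VS2 and of 0.623 in VS1, and the beta-globin gene Hbb-bs had 6.53 in VS2 and 0.419 in VS1. They are listed because the libraries differ in opposite directions in 2 neighbouring muscle subtypes, and the difference between the subtypes was not tested. Haemoglobin UMIs were 1184 in DKO VS2 and 66 in WT VS2, against 1067 in DKO VS1 and 1709 in WT VS1. Cells with 50 or more numbered 5 in DKO VS2 and 0 in WT VS2, against 8 in DKO VS1 and 12 in WT VS1, and the 3 highest cells held 35.9% of the UMIs of WT VS1. Without cells of 3 or more haemoglobin UMIs, which removed 45 DKO and 0 WT cells of VS2, the VS2 ratio of Hba-a2 was 4.09.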

How the results depend on the processing

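With 1 library per group, each value depends on that library and none could be left out. No paired analysis was possible because each group holds 1 library. Counts of genes were the least stable values. Genes past 1.5-fold higher in DKO VS2 numbered 44, but 69 with Gm42418, AY036118, mitochondrial and haemoglobin genes out of the totals, 96 and 71 when thinned to 1000 and 500 UMIs per cell, 11 at 2-fold, and 320 and 16 with at least 30 and 300 summed UMIs. Genes past it lower numbered 51, but 29 when scaled by the median of ratios, 27 with those genes out of the totals, 127 and 81 when thinned to 1000 and 500, 5 at 2-fold, and 438 and 7 with at least 30 and 300 UMIs. The VS2 share ratio of 1.44 was 0.887 within smooth muscle and 2.28 in cells of at least 500 genes. Against VS1, higher genes numbered 2, but 0 when thinned to 1000 and 1 with those genes out of the totals, and lower genes numbered 0, but 1 when thinned to 1000. Against VS3, thinning to 1000 left 23 DKO and 5 WT cells of VS3 and gave 88 higher and 94 lower. Variable genes numbered 14, but 9 when thinned to 500. The Hbb-bs ratio was 0.644 without cells holding 2 or more UMIs of other cell types' markers and 0.758 without cells of 3 or more haemoglobin UMIs. Both filters use haemoglobin counts, so lower ratios follow from their construction, and Hba-a2 stayed above 1 at 3.87 and 4.09. The cause of these changes was not tested, except that a higher count minimum, a higher fold or fewer cells changes how many genes can pass. For single genes and list medians, 319 values stayed within their counting interval, or for a list within the SD of its members over the square root of their number, 34 moved further and 2 reversed. The setting without called doublets removed no VS2 cell, so its 31 unchanged gene ratios were fixed in advance and show no stability. Thinning to 1000 UMIs moved 13 gene ratios and left 17 the same. Cells limited to 700 to 1500 UMIs, cells of 3 or more haemoglobin UMIs left out thinning to 500 UMIs and, between subtypes, the reduced totals were chosen after seeing the data. Thinning to 1000 leaves 46 WT cells of VS2, which limits what it can show.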
